A study of Mus musculus with 10 samples.

Results

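The genes described here are 7 genes of the eosinophil programme and of 12/15-lipoxygenase: Siglecf, Ccr3, Il5ra, Alox15, Epx, Prg2 and Prg3. They were taken by gene symbol from a set of 8, out of 18193 genes read by the arrays. The remaining gene, Ear2, had no probe set listed under its own symbol and was not analysed here. Each of the 7 was read by 1 probe set that the annotation ties to that gene alone. The set was chosen by its difference between the groups on these same arrays, as read from the log2 values. Differences of its members between the groups are therefore given as a description, without a test, and support nothing by themselves.

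Eosinophils are granulocytes that mature in the bone marrow under interleukin 5 and enter tissues along eotaxin chemokines. Their surface carries CCR3, the eotaxin receptor, the α chain of the interleukin 5 receptor (Il5ra) and, in mice, the sialic acid receptor Siglec-F. Their granules hold eosinophil peroxidase (Epx), major basic protein (Prg2) and its homologue (Prg3), whose transcripts are made mainly while the cells mature. Alox15 encodes mouse 12/15-lipoxygenase, which oxygenates arachidonic and linoleic acid; eosinophils and resident peritoneal macrophages express it, and in human monocytes it responds to interleukins 4 and 13. Ccr3 and Il5ra are also found on basophils.

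RNA was measured on 1-colour Affymetrix arrays of the mouse genome in 10 tumors of B16, a transplantable mouse melanoma, all on a C57BL/6 background. The groups were 5 tumors labelled Bach2-deficient and 5 labelled wild type. Bach2 encodes a transcriptional repressor of lymphocytes. The study's design text speaks of Bach2-deficient mice, which places the deficiency in the host. Age, sex, batch and the lost stretch of Bach2 are not given, nor is it stated that each tumor grew in its own mouse, so the spread between samples may be partly technical. Whole tumors were broken up mechanically and not sorted, so each value mixes melanoma cells with every infiltrating cell, and in such bulk samples fewer cells of a type and less RNA per cell cannot be told apart. Values are log2 RMA values (robust multi-array average, a background-corrected, normalized summary of each probe set), and a difference of 1 is a change by a factor of 2.

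Bach2 read 4.96 to 6.37 in Bach2-deficient tumors and 5.93 to 7.78 in wild-type tumors, with overlap, by a probe set whose place relative to the deletion is not known. Poly-A spike controls, added to the RNA before labelling, read 9.21 to 9.43 on Bach2-deficient arrays and 11.0 to 11.4 on wild-type arrays, so that genotype and sample handling cannot be told apart. Xist, which marks female cells, was high on Bach2-deficient replicate 2 (11.9) and on all wild-type arrays (11.4 to 12.2), and low on the other Bach2-deficient arrays (4.76 to 6.61). Eif2s3y, a gene of the Y chromosome, read 10.5 to 10.9 on those other arrays, 4.50 on replicate 2 and 5.07 to 7.68 on wild-type arrays. Sex, as read by these genes, thus nearly follows genotype, and the 2 cannot be told apart. No detection calls were used. A gene whose mean lies below 4.98 belongs to the dimmest 30% and is not shown to be above background; such genes are called dim here.

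RefSeq promoters (GRCm38.p6; 250 bases before to 50 bases after the gene's start) were found for 5 of the 7 measured genes. They are shown because the receptor genes Siglecf, Ccr3 and Il5ra moved together while the granule genes Epx and Prg3 stayed dim. Capitals mark the core GATAA of the GATA factor motif on either strand; GATA1 is needed for the eosinophil lineage in mice.
Siglecf (chr7:43351091-43351390, plus strand): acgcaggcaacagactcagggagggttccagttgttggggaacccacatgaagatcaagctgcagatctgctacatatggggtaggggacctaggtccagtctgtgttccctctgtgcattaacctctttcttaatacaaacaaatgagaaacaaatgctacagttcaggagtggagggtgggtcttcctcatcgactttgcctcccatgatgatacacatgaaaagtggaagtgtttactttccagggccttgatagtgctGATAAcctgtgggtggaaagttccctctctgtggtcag
Ccr3 (chr9:124021721-124022020, plus strand): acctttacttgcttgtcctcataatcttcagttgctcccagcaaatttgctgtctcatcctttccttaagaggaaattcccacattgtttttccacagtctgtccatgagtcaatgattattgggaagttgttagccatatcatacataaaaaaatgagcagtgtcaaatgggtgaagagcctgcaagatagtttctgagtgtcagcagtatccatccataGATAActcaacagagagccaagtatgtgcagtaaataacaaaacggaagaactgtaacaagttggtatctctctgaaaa
Il5ra (chr6:106748988-106749287, minus strand): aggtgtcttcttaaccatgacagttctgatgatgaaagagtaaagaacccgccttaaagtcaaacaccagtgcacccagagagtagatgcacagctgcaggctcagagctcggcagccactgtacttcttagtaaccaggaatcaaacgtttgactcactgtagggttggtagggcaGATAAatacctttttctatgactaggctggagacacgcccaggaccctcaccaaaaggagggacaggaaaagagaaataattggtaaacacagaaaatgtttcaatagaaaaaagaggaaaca
Epx (chr11:87875487-87875786, minus strand): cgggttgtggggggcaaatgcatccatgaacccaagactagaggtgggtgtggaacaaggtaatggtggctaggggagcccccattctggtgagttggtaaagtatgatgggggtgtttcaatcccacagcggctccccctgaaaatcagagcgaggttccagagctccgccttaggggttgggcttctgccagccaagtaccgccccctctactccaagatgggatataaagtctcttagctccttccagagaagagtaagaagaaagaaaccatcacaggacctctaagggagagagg
Prg3 (chr2:84987965-84988264, plus strand): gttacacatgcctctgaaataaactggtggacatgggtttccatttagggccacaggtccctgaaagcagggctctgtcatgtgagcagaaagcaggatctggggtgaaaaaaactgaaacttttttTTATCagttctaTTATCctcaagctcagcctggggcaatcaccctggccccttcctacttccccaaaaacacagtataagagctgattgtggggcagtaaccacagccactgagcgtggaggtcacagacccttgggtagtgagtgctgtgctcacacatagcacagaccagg

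The GATAA core occurred once each in the promoters of Siglecf, Ccr3 and Il5ra, 2 times in that of Prg3 and 0 times in that of Epx, while 25.4% of the 32851 promoters in the table held it. TGANTCA, the core bound by AP-1 and by BACH and small MAF dimers, occurred in Ccr3 and Il5ra and in 7.81% of all promoters. A palindromic STAT core with the longer spacer that STAT6 prefers occurred in Il5ra and Epx and in 6.95% of all promoters. Both strands were searched, and no match overlapped a match to another motif. These are letter matches in a short window and say nothing of binding.

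The surface genes Siglecf and Ccr3 were higher in every Bach2-deficient tumor than in any wild-type tumor, and Il5ra was higher on average with overlapping groups. Siglecf read 7.33, 10.46, 8.59, 10.06 and 9.59 in Bach2-deficient replicates 1 to 5, against 5.00, 5.84, 5.23, 5.31 and 5.51 in wild-type replicates 1 to 5. Every Bach2-deficient tumor lay above every wild-type tumor, by at least 1.49. The means were 9.20 ± 1.26 and 5.38 ± 0.32 (SD, n = 5 each), a log2 difference of 3.83 (SE 0.52, Bach2-deficient minus wild type) or 14.2-fold. Siglecf was the only member whose mean exceeded 4.98 in both groups, so it is the only one given a fold value.

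Ccr3, the receptor through which eotaxins draw eosinophils into tissue, read 6.61, 9.93, 8.47, 9.65 and 9.35 in Bach2-deficient replicates 1 to 5, against 3.97, 6.07, 4.04, 4.30 and 4.33 in wild-type replicates 1 to 5. The groups did not overlap, but wild-type replicate 2 came within 0.55 of Bach2-deficient replicate 1 and stood well apart from the other wild-type tumors. The means were 8.80 ± 1.34 and 4.54 ± 0.87 (SD, n = 5 each), a log2 difference of 4.26 (SE 0.63). Il5ra, the specific chain of the interleukin 5 receptor, read 4.76, 6.60, 5.45, 6.34 and 6.10 in Bach2-deficient replicates 1 to 5, against 4.31, 4.31, 4.83, 4.30 and 4.42 in wild-type replicates 1 to 5. Here the lowest Bach2-deficient tumor fell below the highest wild-type tumor, and the log2 difference of the means was 1.42 (SE 0.31).

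Alox15 had the largest difference of the set. It read 7.30, 11.01, 9.02, 10.32 and 9.42 in Bach2-deficient replicates 1 to 5, against 3.92, 4.40, 3.84, 3.97 and 5.07 in wild-type replicates 1 to 5. The gap between the lowest Bach2-deficient and the highest wild-type tumor was 2.23, the widest of the 7 genes. The means were 9.42 ± 1.41 and 4.24 ± 0.51 (SD, n = 5 each), a log2 difference of 5.18 (SE 0.59), which ranked 8 among the rises of all 18193 genes. Ccr3 ranked 24, Siglecf 37, Prg2 147 and Il5ra 952. The wild-type means of Ccr3, Il5ra, Alox15 and Prg2 lay under 4.98, so the sizes of these differences and their order are not exact.

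**Figure D1:**
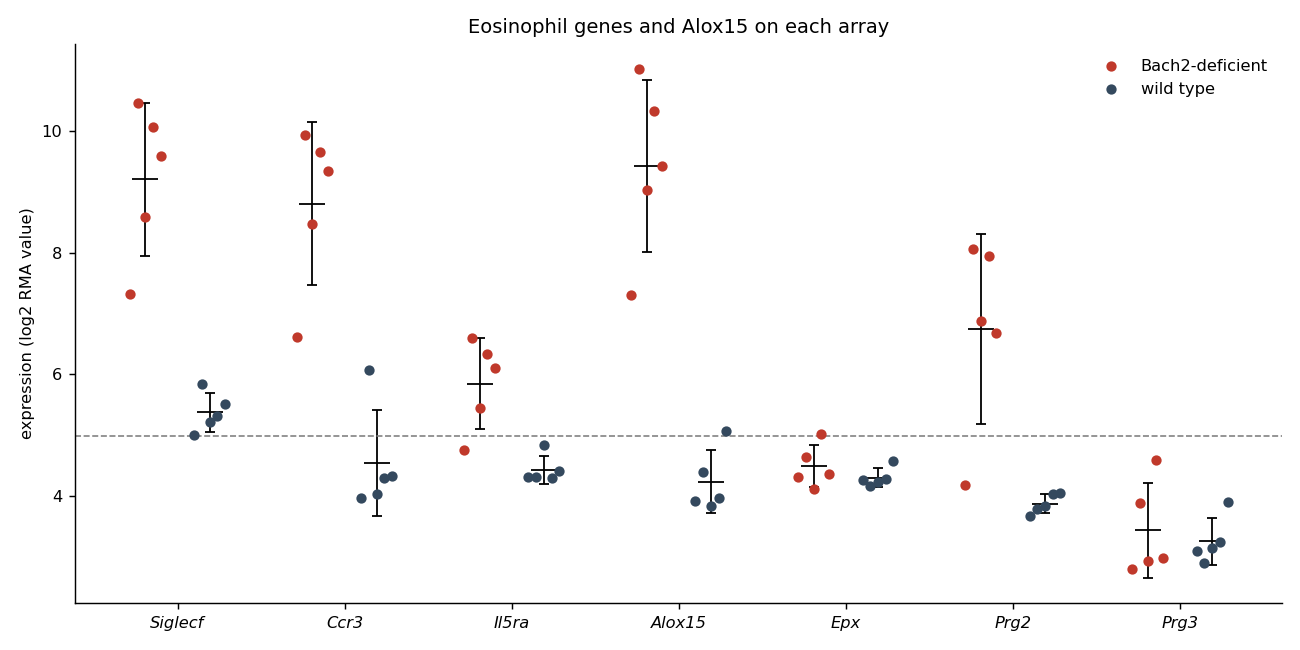
Log2 RMA value of each measured gene on every array, Bach2-deficient (red) left of wild type (blue-grey); bars are mean ± SD, n = 5 each, points run from replicate 1 to 5, and the dashed line is 4.98, the bound of the dimmest 30% of genes. Siglecf, Ccr3, Alox15 and Prg2 show no overlap between the groups, while Epx and Prg3 stay at the bottom of the scale in both.

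The granule genes did not behave alike. Prg2, which encodes the major basic protein of the granule core, read 4.19, 8.06, 6.88, 7.95 and 6.68 in Bach2-deficient replicates 1 to 5, against 3.68, 3.79, 3.84, 4.04 and 4.06 in wild-type replicates 1 to 5. The groups did not overlap, although Bach2-deficient replicate 1 lay only 0.13 above the highest wild-type tumor. The means were 6.75 ± 1.56 and 3.88 ± 0.16 (SD, n = 5 each), a log2 difference of 2.87 (SE 0.62).

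Epx, the haem peroxidase of the granule matrix, read 4.32, 4.65, 4.12, 5.02 and 4.37 in Bach2-deficient replicates 1 to 5, against 4.27, 4.16, 4.24, 4.28 and 4.58 in wild-type replicates 1 to 5. The wild-type range lay inside the Bach2-deficient range, and the log2 difference of the means was 0.19 (SE 0.17). Prg3, the homologue of Prg2, read 2.80, 3.89, 2.94, 4.60 and 2.98 in Bach2-deficient replicates 1 to 5, against 3.10, 2.90, 3.16, 3.26 and 3.91 in wild-type replicates 1 to 5. Its groups also overlapped, with a log2 difference of 0.18 (SE 0.35). Both genes had means under 4.98 in both groups (4.50 and 4.31 for Epx, 3.44 and 3.26 for Prg3, Bach2-deficient before wild type), so a probe set that reads only background would give such values too; that was not tested.

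In the fit over all 18193 genes, 5 of the 7 measured members stood among the genes called higher in Bach2-deficient tumors, where 16.3% of all genes did, and 0 among those called lower, where 12.4% of all genes did. For 4 members the groups did not overlap, with Bach2-deficient higher, as for 11.2% of all genes. The median log2 difference was 2.87 over the 7 and -0.06 over all genes. Because this contrast was known when the set was drawn up, nothing is read from these counts.

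Set side by side on each array, the mean of Siglecf, Ccr3, Il5ra and Alox15 minus the mean of Epx, Prg2 and Prg3 was 2.73, 3.97, 3.23, 3.24 and 3.94 in Bach2-deficient replicates 1 to 5, against 0.62, 1.54, 0.74, 0.61 and 0.65 in wild-type replicates 1 to 5. The groups did not overlap, and the difference of the means was 2.59 on the log2 scale. Without Alox15 it was 2.09. Prg2 set much of the granule mean. Without it the difference was 3.49, a comparison chosen after its values were seen. The per-array difference Prg2 minus Epx was -0.13, 3.41, 2.76, 2.93 and 2.31 in Bach2-deficient replicates 1 to 5, and lay between -0.59 and -0.24 in wild-type tumors. In Bach2-deficient replicate 1, Siglecf lay 1.95, Ccr3 2.07 and Alox15 3.06 above their wild-type means, while Il5ra lay 0.32 and Prg2 0.31 above theirs. Probe sets differ in brightness for the same amount of RNA, so only the change of these differences between arrays is read, not their size. The wild-type means of all these genes but Siglecf lay under 4.98, so the size of that change is not exact.

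**Figure D2:**
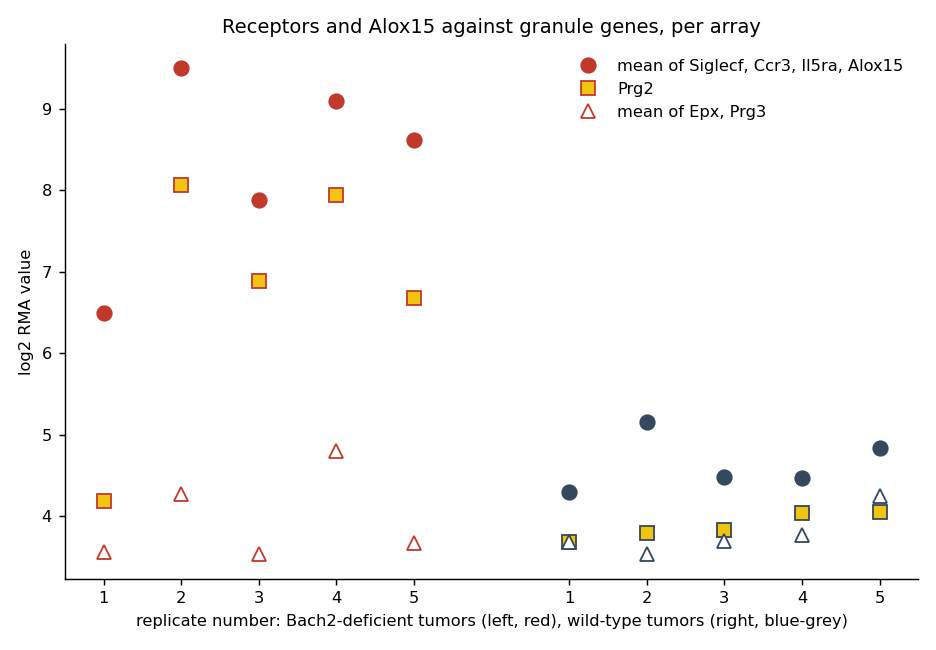
Log2 RMA values on each array, Bach2-deficient replicates 1 to 5 on the left and wild-type replicates 1 to 5 on the right; circles are the mean of Siglecf, Ccr3, Il5ra and Alox15, squares are Prg2 and triangles the mean of Epx and Prg3. Prg2 reads 6.68 to 8.06 on Bach2-deficient replicates 2 to 5 but 4.19 on replicate 1, close to the wild-type squares (3.68 to 4.06), and the triangles span 3.53 to 4.81 in Bach2-deficient and 3.53 to 4.25 in wild-type tumors.

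Within the Bach2-deficient group the tumors fell in nearly the same order for most members. Replicate 2 was highest and replicate 4 next for 5 genes (Siglecf, Ccr3, Il5ra, Alox15 and Prg2), and replicate 1 was lowest for 6, all but Epx. For Epx and Prg3 replicate 4 was highest and replicate 2 next. The spread was wide, 3.13 for Siglecf, 3.32 for Ccr3, 3.71 for Alox15 and 3.88 for Prg2 from the lowest to the highest Bach2-deficient tumor, while Siglecf minus Ccr3 varied over 0.60 and Alox15 minus Siglecf over 0.72. Replicate 2, the highest, is also the only Bach2-deficient array with high Xist. Without it the log2 differences were 3.51 for Siglecf, 3.98 for Ccr3, 1.23 for Il5ra, 4.78 for Alox15 and 2.55 for Prg2. Without replicate 1, the lowest, they were 4.30 for Siglecf, 4.81 for Ccr3, 1.69 for Il5ra, 5.71 for Alox15 and 3.51 for Prg2.

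**Figure D3:**
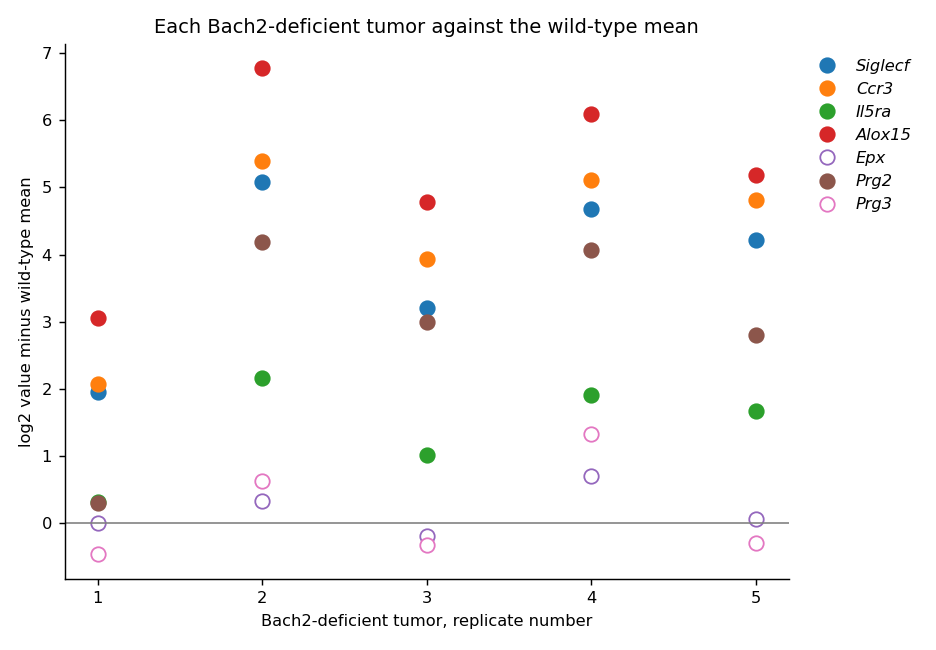
Log2 value of each gene in each Bach2-deficient tumor minus that gene's wild-type mean, by replicate number, with the line at 0 marking the wild-type mean. The filled symbols are lowest on replicate 1 and highest on replicate 2 for every gene drawn filled, and the open symbols (Epx, Prg3) lie between -0.46 and 1.33.

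Other cell types moved with these genes. The mean log2 value of 8 T cell genes was 9.71 to 11.1 in Bach2-deficient and 6.30 to 7.73 in wild-type tumors, and that of 12 monocyte and macrophage genes 10.6 to 11.2 and 9.20 to 10.3. All 8 T cell genes and 9 of the 12 monocyte and macrophage genes rose, with median changes of 3.44 and 1.17. With Xist (high or low) added to the fit, which rests the genotype difference on Bach2-deficient replicate 2, 7 T cell genes and 4 monocyte and macrophage genes rose; Cd14, C1qa, C1qb, Cd68 and Lyz2 lost their calls. The mean of 12 melanocyte genes was 11.2 to 11.9 in Bach2-deficient and 11.9 to 12.1 in wild-type tumors, and 4 of them fell, with a median change of -0.31. That count was 8 without Bach2-deficient replicate 1 or with median centring, and 2 when Bach2-deficient replicate 2 or 4 was left out or the Xist term was added. Bach2-deficient replicate 1, lowest for the receptor genes, had the highest melanocyte mean of its group (11.9) and the lowest T cell mean (9.71). With the melanocyte mean as a covariate the differences shrank to 1.88 for Siglecf (SE 0.40), 2.16 for Ccr3, 0.25 for Il5ra (SE 0.26), 2.94 for Alox15 and 0.36 for Prg2 (SE 0.31). The covariate itself differs between the groups, so this fit cannot assign the shrinkage, and the part of tumor composition in the members' differences was not tested.

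The genes around the members were counted from the same fit on 6 lists by role. Of their 77 measured genes, 48 rose and 4 fell (limma adjusted p under 0.05, Benjamini-Hochberg over the 18193 genes). The lists were chosen with earlier results of these data known, and the shares of all genes that rose and fell were 16.3% and 12.4%. Under the same Xist term 28 rose and 0 fell. With the melanocyte covariate 0 rose and 0 fell.

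Among cytokines that act on eosinophils, their receptors and chemokines, 8 of 13 measured genes rose and 1 fell, with a median change of 1.35. Ccl24, eotaxin-2 and a ligand of CCR3, read 9.08, 11.10, 10.14, 11.30 and 11.51 in Bach2-deficient replicates 1 to 5, against 6.26, 6.78, 6.71, 6.98 and 9.39 in wild-type replicates 1 to 5. It rose by 3.40 (SE 0.63, limma adjusted p = 0.00331), with wild-type replicate 5 above the lowest Bach2-deficient tumor. Ccl5, another ligand of CCR3 and a product of T cells, rose by 3.34 (SE 0.37) with no overlap. Ccl11, eotaxin-1, was dim in both groups and changed by 0.75 (adjusted p = 0.0738), reading 4.89 ± 0.63 in Bach2-deficient and 4.14 ± 0.31 in wild-type tumors (SD, n = 5 each). It passed with repeated quantile normalization (0.85, adjusted p = 0.0423) and with the replicate block (0.75, adjusted p = 0.0322).

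The ligand of the receptor chain encoded by Il5ra was not seen to move. Il5 read 2.80 to 3.10 in Bach2-deficient and 2.89 to 3.08 in wild-type tumors, among the dimmest values of the arrays, and changed by -0.02 (SE 0.09, limma adjusted p = 0.889). Csf2, which encodes GM-CSF, another eosinophil survival factor, rose by 2.24 (SE 0.47, limma adjusted p = 0.00609) with no overlap. Its wild-type mean (4.977) was dim. The shared signalling chain of the IL-5, GM-CSF and IL-3 receptors, Csf2rb, read 11.7 to 12.7 in Bach2-deficient and 9.58 to 11.0 in wild-type tumors and rose by 1.94, and its mouse paralogue Csf2rb2 rose by 2.57; near-identical stretches of the pair may share signal. Both chains are also carried by macrophages and other myeloid cells. Il3ra fell by 0.90 (adjusted p = 0.0453), a call that was lost when any 1 of 8 arrays was dropped and with the replicate block. Ccl7 rose by 0.68 (adjusted p = 0.0499) and lost its call when any 1 of 7 arrays was dropped and with median centring or repeated quantile normalization. With the Xist term 3 genes of this list rose and 0 fell, and Ccl24 (adjusted p = 0.0665), Csf2 (0.100) and Csf2rb (0.0575) were among those that lost their calls.

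Of 10 measured lineage factors, 7 rose, with a median change of 1.44, and 0 fell. Gata1, a factor of the eosinophil, mast cell and red cell lineages, rose by 1.76 (SE 0.44, limma adjusted p = 0.0134), with overlapping groups. Its wild-type mean (4.90) was dim, so the size of its rise is not exact. Cebpa (1.48) and Cebpb (2.26), factors of granulocytes and macrophages, and Spi1 (1.92), which encodes PU.1, rose too. Xbp1, required for eosinophil survival in mice, rose by 0.94. Id2 rose by 0.43, a call lost with median centring (0.27, limma adjusted p = 0.0658). Gata2 changed by 1.41 without passing (adjusted p = 0.122), Id1 by 0.77 and Zfpm1, encoding the GATA1 cofactor FOG1, by -0.15. With the Xist term Gata1, Cebpa, Cebpb, Trib1 and Id2 lost their calls, with changes of 2.61, 1.91, 2.055, 1.56 and 0.52.

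The eosinophil-associated ribonucleases could be followed for 3 relatives of Ear2. Ear3 rose by 1.22 (SE 0.27, limma adjusted p = 0.00803), reading 8.09 to 9.41 in Bach2-deficient and 7.06 to 7.97 in wild-type tumors without overlap. Its _x_at probe set may take signal from near-identical members of the family, so the rise cannot be assigned to Ear3 alone. Rnase2a read 5.14, 10.24, 6.84, 8.27 and 8.62 in Bach2-deficient replicates 1 to 5, against 7.49, 6.54, 7.63, 6.32 and 8.98 in wild-type replicates 1 to 5. It changed by 0.43 (adjusted p = 0.732), with Bach2-deficient replicate 2 highest and replicate 1 lowest of all 10 tumors. Rnase2b changed by 0.54 (adjusted p = 0.264).

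Of 13 other surface genes that mouse eosinophils carry, 9 rose and 0 fell, with a median change of 2.07. P2ry14, a receptor for UDP-glucose, rose by 4.05 (SE 0.47, limma adjusted p = 0.000376). Itgam, encoding CD11b, rose by 2.68 from a dim wild-type level. Itgb2 (2.50), Pirb (2.43), Siglece (2.12) and Adgre1 (2.10), which marks mouse macrophages and eosinophils, rose as well, each without overlap. Macrophages and neutrophils express most of these genes. Neither of 2 further receptors of type 2 granulocytes passed. Ptgdr2, encoding CRTH2, read 5.14 ± 0.07 in Bach2-deficient and 5.03 ± 0.21 in wild-type tumors (SD, n = 5 each). Hrh4, the histamine H4 receptor, read 4.51 ± 0.37 in Bach2-deficient and 4.28 ± 0.14 in wild-type tumors (SD, n = 5 each), dim in both groups. With the Xist term the change of Hrh4 was 0.82, against 0.22 without that term. For Itga4, Fpr2 and Cd300a the changes were 1.54, 2.00 and 1.77 with it and 1.29, 2.07 and 1.57 without it.

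Around Alox15, 10 of 20 measured genes of the lipoxygenase, leukotriene and prostaglandin pathway rose and 3 fell, with a median change of 0.44. With median centring 7 rose and 6 fell, with Alox12 (-0.88, limma adjusted p = 0.0364) and Lta4h (-0.48, adjusted p = 0.0218) among the falls. The leukotriene receptor genes Ltb4r1 (1.87), Cysltr2 (1.76) and Cysltr1 (1.76) rose, Cysltr2 from a dim wild-type level. Alox5, encoding 5-lipoxygenase, rose by 1.56 (SE 0.38, limma adjusted p = 0.0129), its partner Alox5ap by 1.19 and Pla2g4a, the phospholipase that releases arachidonic acid, by 1.49. Ltc4s, the leukotriene C4 synthase that eosinophils and mast cells use, was dim in both groups and changed by -0.24 (adjusted p = 0.490).

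Of the remaining lipoxygenase genes, Alox8 rose by 0.83 (adjusted p = 0.0459) and Alox12e by 0.55 (adjusted p = 0.0245), from dim wild-type levels; the call of Alox8 was lost in 9 of 10 fits without 1 array and that of Alox12e in 2. Both calls were also lost with median centring (0.67 and 0.39) and with the replicate block. Alox12b fell by 0.35 while dim in both groups, a call lost in 4 of those fits and with repeated quantile normalization, Alox12 changed by -0.72 (adjusted p = 0.107) and Aloxe3 by -0.09. Gpx4, a peroxidase that reduces lipid hydroperoxides, fell by 0.65 (SE 0.19, adjusted p = 0.0305), and Pebp1, a protein that binds 15-lipoxygenase in human cells, fell by 0.34. The call of Gpx4 was lost in 7 and that of Pebp1 in 2 of the 10 fits without 1 array, and 0 genes of this list fell without Bach2-deficient replicate 2 or with the Xist term. Acsl4, which loads arachidonic acid into phospholipids, rose by 0.46, a call lost with the Xist term (adjusted p = 0.102).

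Interleukins 4 and 13, which act through STAT6, and the genes that answer them made up the sixth list, of which 14 of 19 rose and 0 fell, with a median change of 1.49. Il4 read 5.98, 9.55, 7.64, 8.37 and 10.79 in Bach2-deficient replicates 1 to 5, against 4.73, 5.08, 5.14, 4.96 and 6.76 in wild-type replicates 1 to 5, a rise of 3.13 (SE 0.79, limma adjusted p = 0.0144) with 1 wild-type tumor above the lowest Bach2-deficient tumor. Il13 read 4.30 to 7.09 in Bach2-deficient and 3.62 to 4.06 in wild-type tumors and rose by 1.49 from a dim wild-type level. That call was lost without Bach2-deficient replicate 2 or 4 (limma adjusted p = 0.0512 and 0.0525). Replicate 5 was highest for both cytokines, whereas replicate 2 was highest for Alox15 and the receptor genes. Il4ra (2.22), Il13ra1 (1.45) and Stat6 (0.96) rose without overlap. Genes that macrophages turn on under IL-4 rose too, among them Pdcd1lg2 (3.53), Retnla (1.78), Chil3 (1.68) and Arg1 (1.17), while Mrc1 (0.49) and Chil4 (0.25) did not pass. With the Xist term 8 of the 19 rose, and Il4 (adjusted p = 0.0879), Il13 (0.271) and Arg1 (0.110) were among those that lost their calls.

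**Figure D4:**
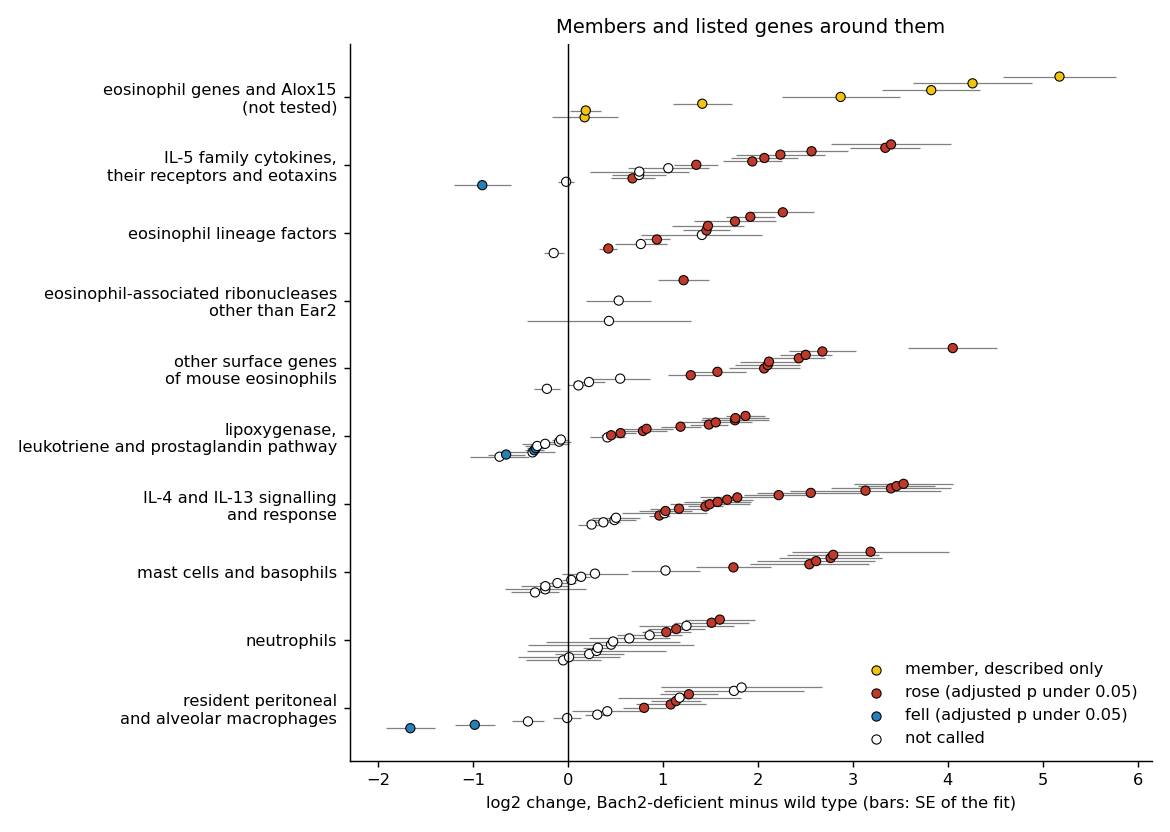
Log2 change (Bach2-deficient minus wild type, bars SE of the fit) of the 7 members, which were not tested, and of the genes of 9 lists; red rose, blue fell, white did not pass. The members hold both the largest value drawn, Alox15 at 5.18, and values near 0.

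Other cells that carry these genes were read by their own markers. Of 14 mast cell and basophil genes, 6 rose and 0 fell, with a median change of 0.66. The list mean was 5.02 to 6.79 in Bach2-deficient and 4.65 to 4.96 in wild-type tumors, and 8 of the 14 lay in the dimmest 30% of genes. Mcpt8, the basophil protease, rose by 3.19 (SE 0.83, limma adjusted p = 0.0166), and the Fc receptor genes Ms4a2 and Fcer1a by 2.77 and 2.54. Cd200r3, a receptor of basophils and mast cells, rose by 2.61 and Hdc, histidine decarboxylase, by 2.79. The wild-type means of Ms4a2 (3.92), Fcer1a (3.51) and Cd200r3 (3.29) were dim, so the sizes of their rises are not exact. The groups overlapped for Mcpt8 and Fcer1a. Mcpt8 (adjusted p = 0.0890) and Hdc (0.108) lost their calls with the Xist term. Of the proteases of tissue mast cells Cma1 rose by 1.74, while Cpa3 (1.03), Tpsb2 (0.29), Tpsab1 (0.14) and Mcpt4 (-0.24) did not pass. Cpa3 passed with repeated quantile normalization (1.09, limma adjusted p = 0.0373). With the Xist term the changes of Cpa3 and Tpsb2 were larger, 2.32 and 1.51. The part of mast cells and basophils in the levels of Ccr3 and Il5ra was not tested.

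Of 14 measured neutrophil genes, 4 rose and 0 fell, with a median change of 0.56, and the list mean was 7.29 to 8.79 in Bach2-deficient and 6.99 to 7.40 in wild-type tumors. Csf3r, the G-CSF receptor, rose by 1.60, while S100a8 (0.01) and S100a9 (-0.05) did not pass. Of the azurophil granule genes of precursors, Prtn3 rose by 1.04 (SE 0.26, limma adjusted p = 0.0139) from a dim wild-type level. Elane (0.32) and Mpo (0.22) did not pass. The neutrophil mean was highest on Bach2-deficient replicates 3 and 4, not on replicate 2. With the Xist term 0 of these genes rose.

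Of 13 genes of resident peritoneal and alveolar macrophages, which express Alox15 or Siglecf in mice, 4 rose and 2 fell, with a median change of 0.80 and a list mean of 5.40 to 6.72 in Bach2-deficient and 5.32 to 5.69 in wild-type tumors. Gata6, the factor that defines peritoneal macrophages, changed by -0.42 (limma adjusted p = 0.0920), and Krt79 (-0.01), Marco (0.31) and Vsig4 (0.41) did not pass. Larger changes of Prg4 (1.83, adjusted p = 0.131), Saa3 (1.75, adjusted p = 0.100) and Cd5l (1.18, adjusted p = 0.199) did not pass either. Marco passed with the mean of probe sets (0.32, limma adjusted p = 0.0191), and Gata6 with median centring (-0.58, adjusted p = 0.0133). With the Xist term the changes of Prg4 and Vsig4 were larger, 4.69 and 1.77. Timd4 (1.27), Icam2 (1.14) and Pparg (0.80) rose, Pparg losing its call with repeated quantile normalization (adjusted p = 0.0602), and Lyve1 (-1.66) and Fabp1 (-0.98, dim in both groups) fell. Car4 rose by 1.08 (limma adjusted p = 0.0490) from a dim wild-type level. That call was lost when any 1 of 8 arrays was dropped, with the mean of probe sets, with median centring and with the replicate block. Of this list 6 genes rose and 0 fell with the Xist term. Without Bach2-deficient replicate 2 or 4, 2 genes of this list rose.

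The genes whose values followed the members most closely were sought over the 10 arrays after each group's mean was removed, among 6344 genes above the dimmest 30% with a within-group SD of at least 0.3. For Siglecf the 5 highest Pearson correlations were with Atp1b1 (0.97), Itgb3 (0.97), Arap3 (0.96), Grap2 (0.94) and Alox15 (0.94). For Alox15 they were with Gab3 (0.96), Itgb3 (0.95), Dennd4c (0.94), Siglecf (0.94) and Rab19 (0.94). For the mean of Epx, Prg2 and Prg3 they were with Rab19 (0.98), Parvg (0.97), Bambi-ps1 (0.96), Cd160 (0.94) and Ppfia4 (0.94). Of the squared deviations of Siglecf 94.0% came from the Bach2-deficient arrays, so these values rest on 5 tumors, and the best of so many genes over 10 arrays will be high. Among the members Siglecf followed Ccr3 (0.92), Il5ra (0.91), Alox15 (0.94) and Prg2 (0.91) more closely than Epx (0.58) and Prg3 (0.64), and Epx followed Prg3 (0.96). The values share arrays and tumor make-up and are a description only.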

How the data were processed

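The deposited table holds log2 expression values that the authors made with RMA and Partek, per the submitters' processing notes; software versions were not found in them. The values (1.99 to 14.4) were used as deposited. Of 45101 probe sets, the 64 controls, 932 with several gene symbols and 9160 with none were left out. Where a gene had several probe sets, the brightest on average stood for it, which gave 18193 genes. RefSeq (GRCm38.p6) supplied promoters.

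Groups and replicate numbers came from the sample titles. Bach2-deficient and wild-type tumors were compared 2-sided over all 10 arrays in R 4.3.3 by moderated linear models (limma 3.58.1: lmFit, then eBayes), with Benjamini-Hochberg adjustment over all genes and a threshold of 0.05. "Rose" and "fell" mean a call in that fit. The members, lists and alternatives were chosen with earlier results of these data known. Any member or listed gene could be named, with Bach2, Xist, Eif2s3y, and the 5 genes most like Siglecf, Alox15 and the granule mean. No set test was run. Data were simulated with 18193 independent genes, of which 200 were changed. Of those changed by 1, 73% were called, and of those changed by 2, 89%. On the real arrays 5226 genes were called and genes share tumor make-up, so these rates need not hold there. No 2 arrays held identical values. The number of arrays limits the precision.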

Additional observations from a re-analysis of the deposited data

Results flagged for a closer look

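In groups of 5 tumors, 7 of the 40 sets of values examined held a tumor whose gap to its nearest neighbour exceeded 0.71 of the group's range (Dixon's critical value); chance gives about 1 in 20. Among wild-type tumors, Ccr3 read 6.07 in replicate 2 against 3.97 to 4.33 in the others. The difference between the receptor genes with Alox15 and the granule genes was likewise 1.54 in wild-type replicate 2, against 0.61 to 0.74 in the others. Il5ra read 4.83 in wild-type replicate 3 against 4.30 to 4.42, and Epx 4.58 in wild-type replicate 5 against 4.16 to 4.28. Among Bach2-deficient tumors, replicate 1 was low in 3 list means. The eosinophil lineage factors averaged 8.14 there against 9.01 to 9.23 in the others, the other surface genes of eosinophils 8.79 against 9.53 to 9.78, and the monocyte and macrophage genes 10.6 against 11.1 to 11.2.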

How the results depend on the processing

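Under repeated quantile normalization, median centring and every fit without 1 array, the differences of the 7 members moved by less than 1 within-group SD. So did the receptor minus granule difference, which median centring cannot change. The mean of probe sets (1 probe set per member), moderation with a trend, the dim-gene filter and the balanced replicate block cannot change the members' differences. That the differences stayed the same there shows nothing. Epx and Prg3 were not kept by the dim-gene filter, so the receptor minus granule difference was not computed with it. Without 1 array the difference ranged from 3.51 to 4.30 for Siglecf, 3.98 to 4.81 for Ccr3, 1.23 to 1.69 for Il5ra, 4.78 to 5.71 for Alox15, 0.06 to 0.28 for Epx, 2.55 to 3.51 for Prg2 and -0.11 to 0.34 for Prg3, and from 2.45 to 2.77 for receptors with Alox15 minus granule genes (2.59 with all arrays, 2.09 without Alox15, 3.49 without Prg2). With the Xist term the differences were 5.08 for Siglecf, 5.39 for Ccr3, 2.17 for Il5ra and 6.77 for Alox15. They were 0.34 for Epx, 4.18 for Prg2, 0.62 for Prg3 and 3.14 for receptors minus granule genes. That term leaves Bach2-deficient replicate 2 as the only array to set against wild type. With the melanocyte covariate they were 1.88 for Siglecf, 2.16 for Ccr3, 0.25 for Il5ra, 2.94 for Alox15, -0.22 for Epx, 0.36 for Prg2, -0.92 for Prg3 and 2.07 for receptors minus granule genes; the cause was not tested. Over all genes 2962 rose and 2264 fell, 2270 to 3120 and 1388 to 2807 without 1 array (1388 and 1447 fell without Bach2-deficient replicates 2 and 4), 1030 and 387 with the Xist term, 93 and 43 with the covariate, and 4816 fell with median centring, which shifted the median of all genes by -0.16. Of the listed eosinophil, lipoxygenase and type 2 genes 48 rose and 4 fell, 43 to 50 and 0 to 5 without 1 array, 28 and 0 with the Xist term, 0 and 0 with the covariate, and 7 fell with median centring. Of the other cell type genes 31 rose and 6 fell, 27 to 34 and 4 to 10 without 1 array (10 without Bach2-deficient replicate 1), 2 fell with the Xist term, 1 and 0 passed with the covariate, and 11 fell with median centring. With the covariate, Car4 (-0.18) and Tyr (0.0945) changed sign, without a call. Same-numbered tumors of the 2 groups had deviations correlated at 0.00 to 0.24. Differently numbered tumors were not compared, so whether the numbers pair the tumors was not tested. The replicate block gave 2842 rises and 2110 falls, and left the difference for Siglecf at 3.83, as a balanced block must. With the block the SE was 0.36 for Siglecf and 0.38 for Ccr3, against 0.52 and 0.63 without it. For Il5ra the SE was 0.305 with the block and 0.313 without, and for Epx 0.166 and 0.165. Levels under 4.98 limit the sizes given, and Epx and Prg3 may lie below what these probe sets can read.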

Other observations

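The mean of Epx and Prg3, taken apart from Prg2 after its values were seen, followed other genes than the receptors did. Over the 10 arrays with group means removed, its 5 highest correlations were with 3 immunoglobulin κ entries (0.97, 0.96 for Igk-V21 and 0.91 for Igk), with Zfp82 (0.96) and with Batf (0.93), a factor of activated lymphocytes that rose by 1.32. The immunoglobulin entries did not pass in the comparison of the groups (-0.25, -0.24 and -0.79). Both Epx and Prg3 are dim, and the correlations are a description over 10 arrays.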
